A study of Mus musculus with 15 samples.

Results

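The genes described here are the cytosolic ribosomal protein genes of the mouse submandibular gland. They were taken from the deposited table as symbols made of Rpl or Rps, a number and at most 1 further letter, together with Rplp0, Rplp1 and Rplp2. A mean of at least 5 CPM (counts scaled to the size of the library) over the 15 libraries was also required. Of 21013 gene symbols, 81 fitted the pattern and 77 reached that level: 44 of the large subunit, 30 of the small subunit and 3 of the stalk. Just below the level were Rps4l at 4.61 CPM, Rpl32l at 0.445 CPM, Rpl3l at 0.164 CPM and Rpl39l at 0.0509 CPM. Just above it were Rpl6l at 5.46 CPM and Rps28 at 16.3 CPM. All 77 also passed the low-count filter of the tests.

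All glands came from wild-type male C57BL/6 mice aged 8 to 10 weeks, with 3 libraries in each of 5 groups. The group called IR_iEV_30d received 15 Gy to the gland region and weekly iEV injections into the gland from day 1, and was collected at day 30. IR_30d was irradiated alike and collected at day 30 with no iEVs. IR_iEV_4d and IR_4d were the corresponding groups collected at day 4, and NT glands were nontreated. What iEV stands for is not written out in the labels; the series title names extracellular vesicles of mesenchymal stem cells. No group is named as injected with vehicle, so the iEVs and the injection cannot be told apart. The day on which NT glands were collected is not labelled, and neither is whether each library came from its own mouse. What the p-values weigh is thus the scatter among these libraries, part of which may be technical.

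A ribosome joins a small subunit, which holds the messenger RNA and reads its codons, to a large subunit, which forms the peptide bonds. Each subunit is built on ribosomal RNA with many small proteins made in near-equal amounts, and the stalk formed by Rplp0, Rplp1 and Rplp2 recruits the factors that drive elongation. In mammals the messages of these genes mostly begin with a C followed by a run of pyrimidines, the terminal oligopyrimidine (TOP) tract, through which mTORC1 controls their translation. Salivary acinar and duct cells export large amounts of protein and are rich in ribosomes.

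The gene that moved most, Rps27l, is a paralog of Rps27 that p53 activates in human and mouse cells. Their coding sequences are given because the measurement rests on telling them apart. They were taken from GENCODE M21 transcripts (GRCm38), with Rps27l on chromosome 9, plus strand, and Rps27 on chromosome 3, minus strand. Capitals mark the 61 of 255 bases that differ. The sequences were 76.08% identical, and the longest run they share is 11 bases.
Rps27l: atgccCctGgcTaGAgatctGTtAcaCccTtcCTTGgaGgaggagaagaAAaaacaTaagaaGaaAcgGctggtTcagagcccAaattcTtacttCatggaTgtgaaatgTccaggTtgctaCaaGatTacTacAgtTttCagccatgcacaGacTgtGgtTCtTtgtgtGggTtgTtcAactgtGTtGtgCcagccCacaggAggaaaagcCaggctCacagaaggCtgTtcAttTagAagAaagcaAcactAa
Rps27: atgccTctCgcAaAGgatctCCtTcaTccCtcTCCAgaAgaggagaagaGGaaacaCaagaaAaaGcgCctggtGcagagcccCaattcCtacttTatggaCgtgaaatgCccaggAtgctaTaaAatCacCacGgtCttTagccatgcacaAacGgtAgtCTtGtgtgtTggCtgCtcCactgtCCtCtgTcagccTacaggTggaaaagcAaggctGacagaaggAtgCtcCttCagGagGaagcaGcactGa

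The start sites of 4 genes on which the results turn follow, to show the pyrimidine runs near them. Each line holds 30 bases before and 20 bases from an annotated start, on the strand of the gene, from the RefSeq promoter table (GRCm38.p6). Capitals mark a pyrimidine run from its first C within 10 bases of the start. Rps27l and Rpl34 have 2 annotated starts each and Rps19 has 3. Of these the first start with such a run is shown, so the lines were picked for the run. Rps27l lies at chr9:66946056-66946105 (plus), Rps19 at chr7:24884883-24884932 (plus), Rps23 at chr13:90923092-90923141 (plus) and Rpl34 at chr3:130730379-130730428 (minus).
Rps27l: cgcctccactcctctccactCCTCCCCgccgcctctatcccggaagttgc
Rps19: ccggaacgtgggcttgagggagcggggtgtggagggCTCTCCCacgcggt
Rps23: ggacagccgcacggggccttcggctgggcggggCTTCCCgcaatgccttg
Rpl34: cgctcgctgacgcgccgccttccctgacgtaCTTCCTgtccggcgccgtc
A run of at least 6 bases, each C or T and the first of them C, was sought on the strand of the gene. Within 10 bases of any annotated start it was found in 32 of the 56 ribosomal protein genes with an entry (57.1%). The same run was found in 5910 of all 27025 genes of the table (21.9%), and in 1841 of 7786 genes at 5 CPM or more (23.6%). None of the capitals above begins at the annotated first base. Those of Rps27l end 4 bases before it and follow a c and a t of the same run, and those of Rpl34, Rps23 and Rps19 begin at bases 2, 4 and 7 of the annotated transcript. A run of this length read from the first base of any annotated start was found in 11 of the 56 ribosomal protein genes (19.6%) and in 553 of the 27025 genes (2.05%). The run is a match of letters near an annotated start and was not shown to be a TOP tract.

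The libraries held between 29082798 and 52201098 counts, and the 10 highest genes of each took 39.9 to 50.4% of them. The ribosomal protein genes together took 0.809 to 1.07%. Irradiation was visible in the p53 target Cdkn1a, which was at 24.9 to 86.0 CPM in the irradiated libraries and 1.76 to 3.03 CPM in NT libraries. Markers of the neighbouring sublingual gland were high (mean log2 CPM above 5) in 6 libraries: IR_iEV_30d replicate 2, IR_iEV_4d replicates 2 and 3, IR_4d replicates 1 and 2, and NT replicate 1. Leaving these out keeps only replicate 3 of IR_4d and replicate 1 of IR_iEV_4d. The acinar marker Aqp5 and the granular tubule kallikrein Klk1b22 were present in every library, at 192 to 358 CPM and 3317 to 12690 CPM. The mean log2 CPM of 5 parotid markers was 8.86 to 10.1 in IR_iEV_4d, 5.79 to 10.1 in IR_4d and 3.27 to 5.21 in NT libraries. It was 4.40 to 8.81 in IR_iEV_30d and 4.50 to 7.20 in IR_30d libraries. Their summed CPM overlapped, at 25543 to 30973 in IR_iEV_4d, 21499 to 26203 in IR_4d and 24101 to 33217 in NT libraries. The part of these differences in the results was not tested. Counts and markers are of whole glands, in which fewer cells of a type and less RNA per cell cannot be told apart.

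In level, the most abundant messages were Rplp0 with a mean of 544 CPM, Rpl4 with 427 CPM and Rpl10 with 351 CPM, and the scarcest were Rpl36a with 27.3 CPM, Rps28 with 16.3 CPM and Rpl6l with 5.47 CPM. Per kilobase of transcript, Rpl10, a large subunit protein near the tRNA sites, stood highest at 424 CPM per kb and Rplp0, the stalk base, next at 401 CPM per kb. Rpl6l, a copy of Rpl6, stood lowest at 6.28 CPM per kb. The medians of the large and small subunit genes were 121 and 124 CPM per kb, and that of the 3 stalk genes was 296 CPM per kb. These values depend on the transcript chosen: Rps15a stood at 8.24 CPM per kb with the median length of its best-ranked transcripts and at 66.0 CPM per kb with the shortest, and the large subunit median became 137 CPM per kb. The shortest length was tried after the levels had been seen, because Rps15a was low.

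Some of these counts could include reads of near-identical copies, since how multi-mapping reads were treated is not given in the sources used here. The pseudogene row Rps6-ps4 averaged 175 CPM and Rps6, the small subunit protein phosphorylated by S6 kinase, 51.9 CPM, and the copy is identical over all 750 coding bases. The level of Rps6 is therefore uncertain. Rps19-ps3, 93.9% identical to Rps19 where aligned, averaged 0.916 CPM against a mean of 60.5 to 89.3 CPM per group for Rps19. The row Rps27rt, whose identity to Rps27 was not measured, averaged 8.15 CPM beside 36.7 CPM for Rps27. Strand use in counting is not stated either, so reads of overlapping antisense genes could be included.

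**Figure D1:**
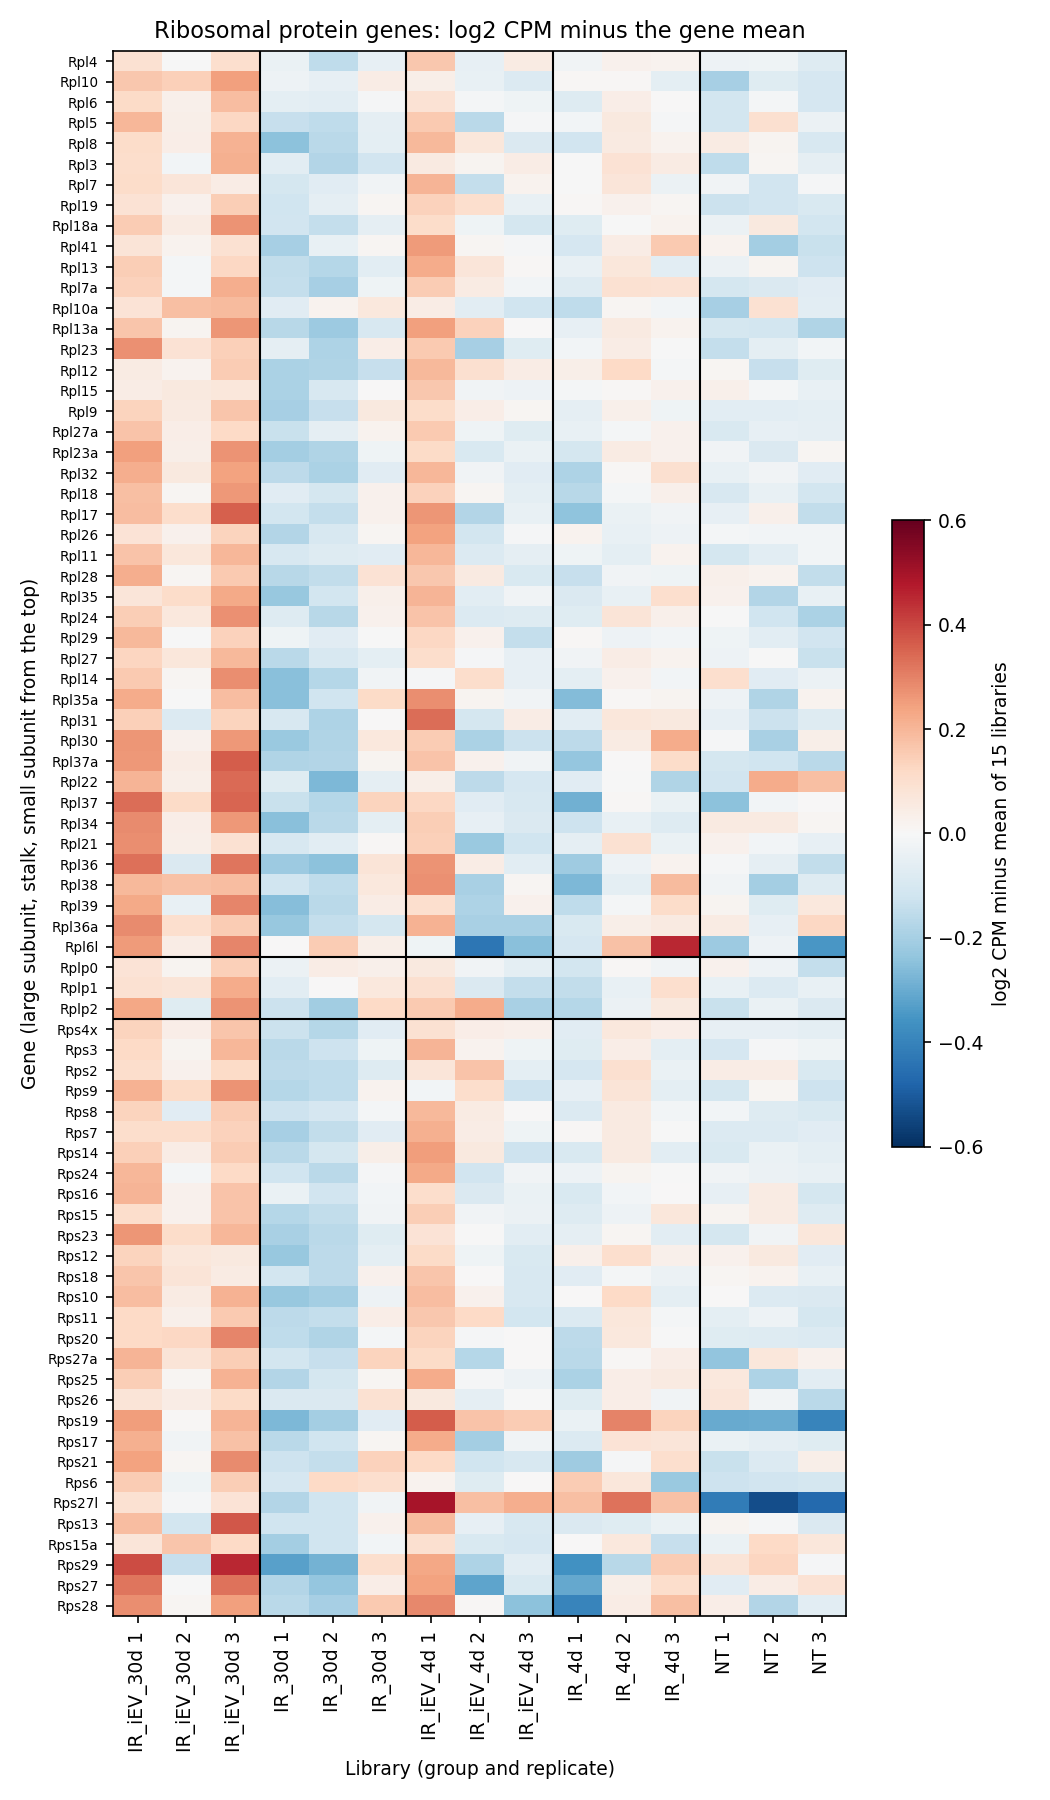
Each row is a ribosomal protein gene and each column 1 of the 15 libraries, coloured by log2 CPM minus the mean of the gene over the libraries. IR_iEV_30d columns are mostly red and IR_30d columns mostly blue, and Rps27l and Rps19 are bluest in the 3 NT columns.

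The messages varied little and mostly together. The standard deviation (SD) of log2 CPM over the 15 libraries had a median of 0.121 and ranged between 0.0729 for Rplp0 and 0.296 for Rps27l. As a description over the same 15 libraries, which also share depth and composition, the correlation of a gene with the mean of the other members had a median of 0.84 and exceeded 0.5 for 74 of 77. The lowest were Rps6 at 0.34, Rpl6l at 0.45 and Rps27l at 0.46. The value of Rps6 is uncertain, as its level is, because of the copy Rps6-ps4.

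Irradiation was compared with NT first at day 4. Rps27l and Rps19 rose, and none of the 77 fell. Rps27l stood at 57.0, 63.0 and 56.9 CPM in IR_4d libraries, against 37.6, 34.8 and 36.4 CPM in NT libraries. Every IR_4d library lay above every NT library. The log2 change was 0.70 ± 0.09 (SE), or 1.63-fold, with an adjusted p of 0.000132 (edgeR quasi-likelihood test, Benjamini-Hochberg over 16042 genes, as for every adjusted p here). Rps19, a small subunit protein needed for maturation of the subunit and mutated in human Diamond-Blackfan anaemia, stood at 73.9, 93.5 and 83.6 CPM in IR_4d libraries and 61.8, 61.8 and 57.8 CPM in NT libraries. These groups did not overlap either, and the log2 change was 0.47 ± 0.10 (adjusted p = 0.0165).

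Across all genes 1.40% passed the threshold at this day, and 2 of the 77 did. The median change of the 77 genes was 0.03 on the log2 scale, 55 were above 0 (49.4% of all genes were), and the median of all genes tested was -0.00. Rps27 did not pass: it stood at 29.4, 37.3 and 39.1 CPM in IR_4d libraries against 34.7, 37.4 and 38.6 CPM in NT libraries, a log2 change of -0.07 ± 0.14 (adjusted p = 0.921). Among large subunit genes the lowest p-values that missed the threshold belonged to Rpl6l, with 0.39 ± 0.17 (adjusted p = 0.366), and Rpl22, which binds RNA outside the ribosome as well, with -0.19 ± 0.10 (adjusted p = 0.527). Rpl13a (0.14), Rpl19 (0.13), Rpl34 (-0.12), Rps29 (-0.18) and Rps15a (-0.07) did not pass, and stalk genes changed by 0.01 to 0.04. The call for Rps19 was lost without IR_4d replicate 2, IR_4d replicate 3, NT replicate 2 or NT replicate 3 (adjusted p = 0.114, 0.0638, 0.0528 and 0.0905). Without the 6 sublingual-rich libraries, which left only replicate 3 of IR_4d, its log2 change was 0.47.

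**Figure D2:**
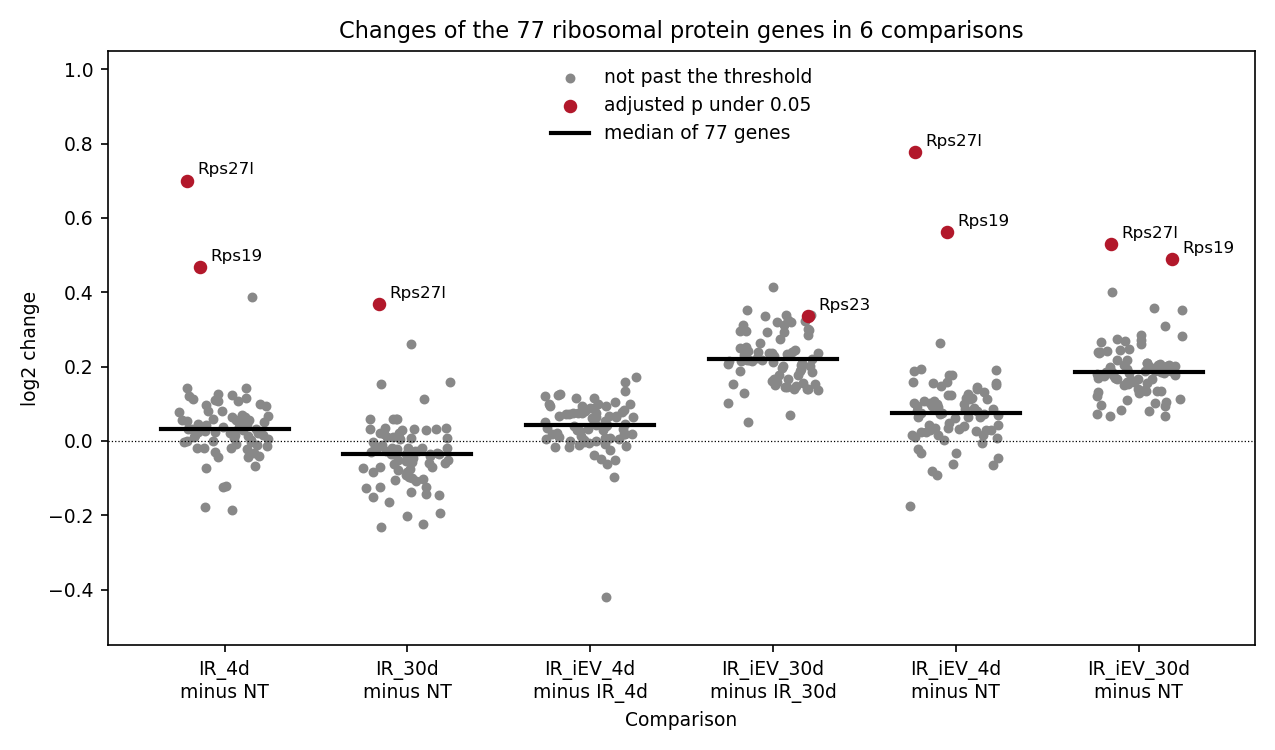
Each point is the log2 change of 1 of the 77 genes in 1 of 6 comparisons, spread sideways for legibility, red where the adjusted p was under 0.05, with a black bar at the median. The bar lies at 0.22 for IR_iEV_30d minus IR_30d, where every point is above 0, and at 0.03 for IR_4d minus NT.

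At day 30 Rps27l alone rose against NT. It stood at 44.6, 46.3 and 49.6 CPM in IR_30d libraries and at 37.6, 34.8 and 36.4 CPM in NT libraries, with a log2 change of 0.37 ± 0.09 (adjusted p = 0.0218). The groups again did not overlap. Over all genes 4.48% passed, and 1 of the 77 did. The median of the 77 was -0.03, with 24 above 0 beside 49.4% of all genes. Rps19 was at 63.2, 66.0 and 72.6 CPM in IR_30d libraries, a log2 change of 0.15 ± 0.10 (adjusted p = 0.488). The lowest p-values among genes with a negative change were those of Rpl22 (-0.23 ± 0.10, adjusted p = 0.266) and Rpl34 (-0.19 ± 0.09, adjusted p = 0.270), followed by Rps12 (-0.15), Rps15a (-0.16) and Rpl36a (-0.20), none past the threshold. The call for Rps27l was lost without IR_30d replicate 2, IR_30d replicate 3, NT replicate 2 or NT replicate 3 (adjusted p = 0.0683, 0.114, 0.0766 and 0.0512), with library totals in place of TMM scaling (0.164), with sublingual and adipose marker levels as covariates (0.0535) and without the 6 sublingual-rich libraries (0.0531).

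In IR_30d minus IR_4d Rps27l fell: its log2 change was -0.33 ± 0.09 (adjusted p = 0.0271), with every IR_30d library below every IR_4d library. That call was lost when any of these 6 libraries except IR_30d replicate 3 was left out (adjusted p = 0.0551 to 0.15), and with the marker levels as covariates (0.0622). Without the 6 sublingual-rich libraries, which left only replicate 3 of IR_4d, the log2 change was -0.29. Rps27l was the only one of 77 to pass, where 6.81% of all genes did. The median of the 77 was -0.07, with 9 above 0 beside 47.9% of all genes. In glands that received iEVs, the IR_iEV_30d minus IR_iEV_4d change of Rps27l was -0.25 (adjusted p = 0.0890), none of the 77 passed against 8.27% of all genes, and the median was 0.11.

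A test of any difference among the 5 groups called Rps27l (adjusted p = 0.000116), Rps19 (0.00218), Rpl13a (0.0349) and Rps23 (0.0445), 4 of 77 where 12.1% of all genes passed.

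Glands with iEVs were compared with irradiated glands of the same day. At day 4 none of the 77 passed; 5 of 16042 genes did (0.0312%), 1093 genes (6.81%) had an unadjusted p under 0.05, and 1 of the 77 did. DESeq2 and limma-voom also called none of the 77. The median change was 0.04 with 61 above 0 beside 49.2% of all genes, and this median became -0.02 without IR_iEV_4d replicate 1. Rpl6l had the lowest p of the members: 5.31, 4.00 and 4.53 CPM in IR_iEV_4d libraries against 5.03, 6.10 and 7.38 CPM in IR_4d libraries, a log2 change of -0.42 ± 0.17 (adjusted p = 0.660), and the groups overlapped. The largest positive values that did not pass were Rpl35a with 0.17 and Rpl36 with 0.16.

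At day 30 the estimated change was above 0 for all 77 genes, and 1 of them, Rps23, passed the threshold; over all genes 0.798% did. Rps23, a small subunit protein of the decoding centre, stood at 140, 126 and 134 CPM in IR_iEV_30d libraries, against 102, 104 and 111 CPM in IR_30d libraries. The groups did not overlap, and the log2 change was 0.34 ± 0.07 (adjusted p = 0.0416). The median change of the 77 was 0.22, a 1.16-fold difference, where the median of all genes was -0.01 and 48.5% of all genes were above 0. By an unadjusted p under 0.05, 51 of the 77 qualified, beside 12.9% of all genes, and in 51 of the 77 the IR_iEV_30d libraries all lay above the IR_30d libraries, beside 8.68% of all genes. The 77 genes moved mostly together over the libraries (median correlation 0.84), so such counts are not separate results. They rest on the same 3 libraries of each group, here and in the other comparisons.

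By subunit, the median was 0.23 for 44 large subunit genes, 0.22 for 30 small subunit genes and 0.13 for the 3 stalk genes. Rpl34 of the large subunit stood at 56.9, 48.0 and 56.0 CPM in IR_iEV_30d libraries and 39.4, 41.8 and 44.9 CPM in IR_30d libraries, with 0.35 ± 0.09 (adjusted p = 0.0713). Rpl23a, near the exit of the nascent chain, changed by 0.32 (adjusted p = 0.0991), Rpl13a, a large subunit protein with functions outside the ribosome, by 0.31 (0.104) and Rps20 by 0.29 (0.109). Rpl5 and Rpl11, which bind Mdm2 when ribosome assembly fails, changed by 0.24 ± 0.09 (adjusted p = 0.275) and 0.23 ± 0.08 (0.223). The smallest changes were those of Rps6 at 0.05 and Rplp0 at 0.07. That of Rps6 is uncertain: its copy Rps6-ps4, of identical coding bases, averaged 194 CPM in IR_iEV_30d and 162 CPM in IR_30d libraries. The call for Rps23 was lost when any library of the comparison other than IR_iEV_30d replicate 2 was left out (adjusted p = 0.140 and 0.130 without IR_iEV_30d replicates 1 and 3, and 0.174, 0.194 and 0.102 without IR_30d replicates 1, 2 and 3). It was also lost with library totals (0.0739), without the low-count filter (0.062), in a fit of that comparison alone (0.13), with the replicate number as a block (0.0782) and with the marker levels as covariates (0.109). Rpl34, Rpl23a and Rpl13a each passed in 3 of 17 alternatives and missed the threshold in the other 14.

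**Figure D3:**
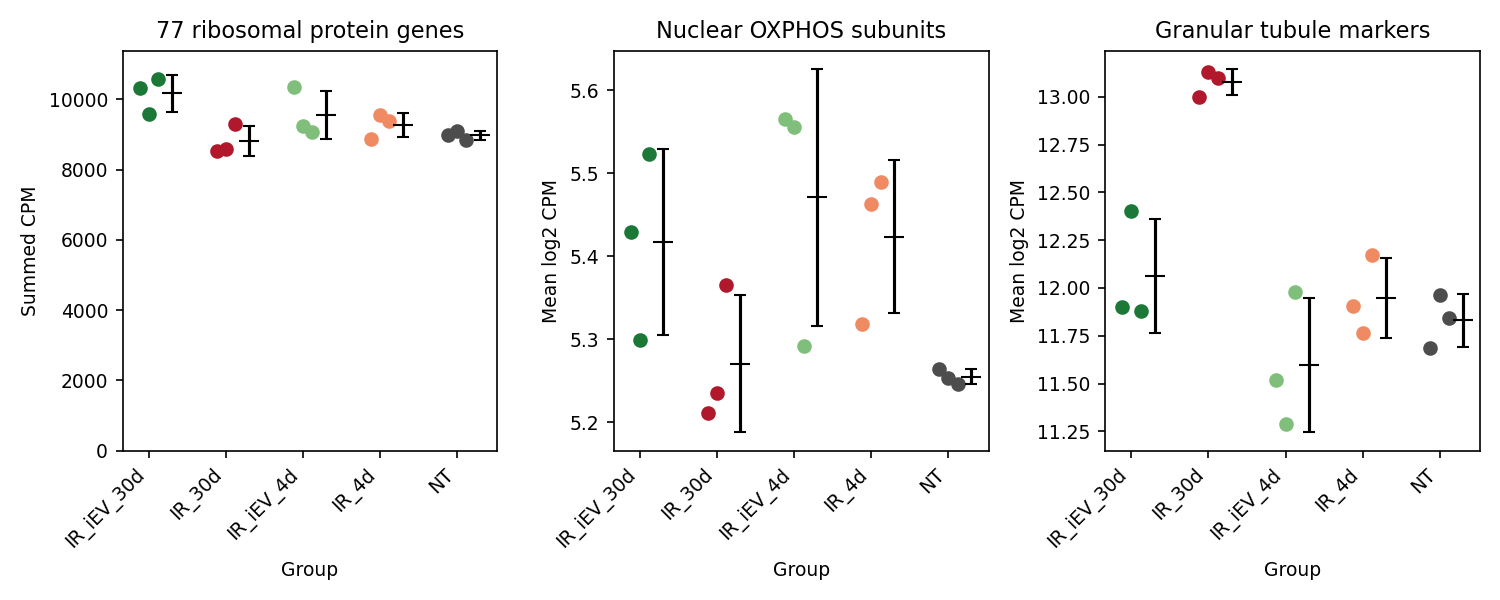
Panels show per library the summed CPM of the 77 genes, and the mean log2 CPM of nuclear subunits of oxidative phosphorylation and of granular tubule markers, with bars for the mean and SD of 3 libraries. Ribosomal protein messages sum to 9593 to 10588 CPM in IR_iEV_30d and 8536 to 9296 CPM in IR_30d libraries, while granular tubule markers are at 11.9 to 12.4 in IR_iEV_30d and 13.0 to 13.1 in IR_30d libraries.

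Other gene groups moved with this difference. Of the 6 granular tubule markers 4 fell in IR_iEV_30d, among them Klk1b22 by 0.99, Klk1b9 by 1.20 and Klk1b26 by 0.78 on the log2 scale. Their summed level was 73816 to 105541 CPM in IR_iEV_30d libraries and 149655 to 161837 CPM in IR_30d libraries, and none of the 6 was at 0 in any group. The 8 macrophage markers summed to 197 to 262 CPM in IR_iEV_30d and 268 to 353 CPM in IR_30d libraries, with none past the threshold. Aqp5, 1 of 6 acinar markers, rose by 0.45 (adjusted p = 0.0411). The summed levels of the 6 overlapped, at 2342 to 3223 CPM in IR_iEV_30d and 2409 to 2628 CPM in IR_30d libraries. The 6 markers of proliferating cells were all below 0 with a median of -0.74, and their mean log2 CPM was 0.93 to 1.44 in IR_iEV_30d libraries and 1.52 to 2.14 in IR_30d libraries, without overlap. All 9 adipose markers (median -2.11) and all 5 erythroid markers (median -1.46) were below 0 as well, with library levels that overlapped. None of these 3 lists held a gene past the threshold or at 0 in all libraries of a group. The part of these shifts in the ribosomal protein result was not tested. Among 56 tested nuclear subunits of oxidative phosphorylation, whose messages are also short and abundant, none passed, 52 were above 0 and the median was 0.14. Their IR_iEV_30d and IR_30d values were 5.30 to 5.52 and 5.21 to 5.37 mean log2 CPM. The IR_iEV_30d library with the high sublingual markers had the lowest ribosomal protein level of its group, 6.62 mean log2 CPM against 6.76 and 6.78 in the other libraries. Without the 6 libraries high in these markers 9 of the 77 passed, beside 1.88% of all genes in the same fit, and the median was 0.28.

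Whether the iEV difference itself changed between day 30 and day 4 was tested as an interaction, which none of the 77 passed (20 of 16042 genes, 0.125%). The estimate was above 0 for all 77, beside 48.7% of all genes, with a median of 0.18. The IR_iEV_30d and IR_30d libraries are shared with the other comparisons of these groups. Against NT, Rps27l and Rps19 rose in IR_iEV_30d (1.10% of all genes passed), by 0.53 ± 0.09 (adjusted p = 0.00348) and 0.49 ± 0.10 (0.0129). The call for Rps19 was lost without IR_iEV_30d replicate 1 (adjusted p = 0.0525), without NT replicate 3 (0.0524) and in a fit of that comparison alone (0.0815). All 77 estimates were above 0 in this comparison, beside 49.3% of all genes, with a median of 0.19, and in 45 of the 77 every IR_iEV_30d library lay above every NT library, beside 8.61% of all genes. Rps27l stood at 53.6, 50.1 and 53.4 CPM in IR_iEV_30d libraries and Rps19 at 90.6, 76.4 and 87.8 CPM. In IR_iEV_4d the same genes rose against NT (2.31% of all genes), Rps27l by 0.78 ± 0.09 (adjusted p = 3.5e-05) and Rps19 by 0.56 ± 0.10 (adjusted p = 0.00347).

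**Figure D4:**
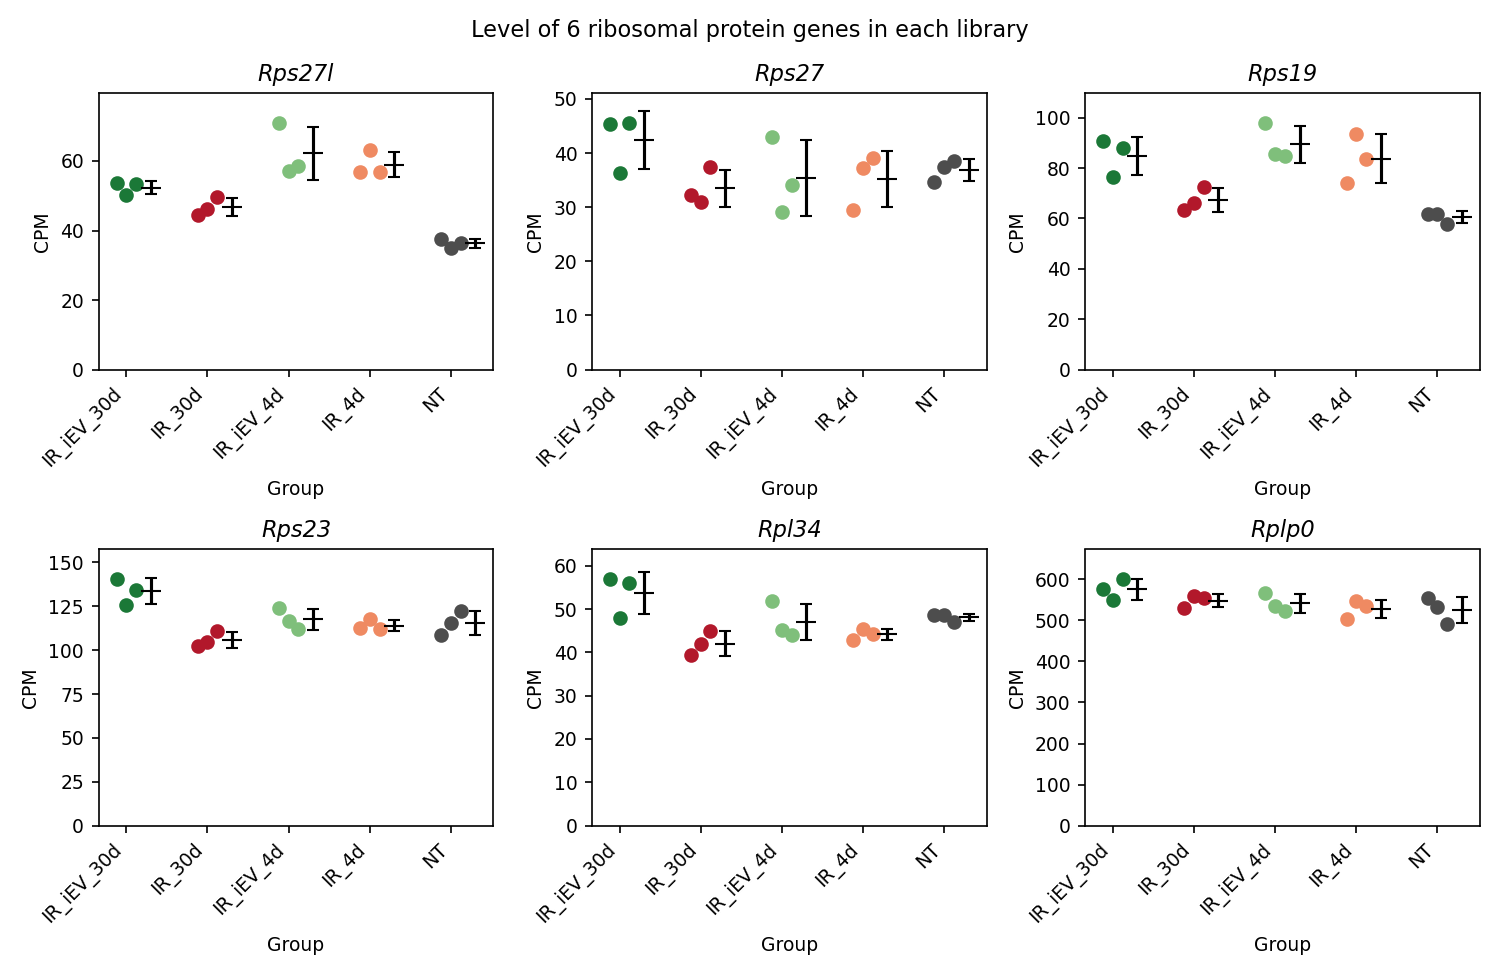
Each panel gives the CPM of 1 gene in the 15 libraries by group, with bars for the mean and SD of 3 libraries and the axis starting at 0. Rps27l lies at 44.6 to 70.9 CPM in irradiated libraries and 34.8 to 37.6 CPM in NT libraries, while Rplp0 varies least over the libraries.

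Measured against the sum of the 77 genes in each library, which takes out a shift common to them, Rps27l and Rps19 departed from the rest in comparisons with NT. In IR_4d minus NT (1.22% of all genes passed) Rps27l departed by 0.65 ± 0.08 (adjusted p = 8.66e-05) and Rps19 by 0.42 ± 0.08 (adjusted p = 0.0119). In IR_30d minus NT (3.37%) Rps27l departed by 0.39 ± 0.08 (adjusted p = 0.00848). In IR_iEV_4d minus NT (2.49%) Rps27l departed by 0.68 ± 0.08 (adjusted p = 4.83e-05) and Rps19 by 0.47 ± 0.08 (adjusted p = 0.00382). In IR_iEV_30d minus NT (3.12%) Rps27l departed by 0.35 ± 0.08 (adjusted p = 0.0274) and Rps19 by 0.31 ± 0.08 (adjusted p = 0.0461). In IR_iEV_30d minus IR_30d none of the 77 departed, none had an unadjusted p under 0.05, and the SD of the 77 changes was 0.07 on the log2 scale. Over all genes 6.02% passed with this scaling and 0.798% with TMM scaling. Scaling to the sum centres the 77 near 0 in advance and moves the other genes against them. The 6.02% is therefore not a like background for the 77. In IR_iEV_4d minus IR_4d (0.0187%) none departed either. Between the days, none departed in IR_30d minus IR_4d (6.17%), where Rps27l was at -0.26 ± 0.08 (adjusted p = 0.0656), and Rps27l alone departed in IR_iEV_30d minus IR_iEV_4d (7.52%), by -0.33 ± 0.08 (adjusted p = 0.0182).

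**Figure D5:**
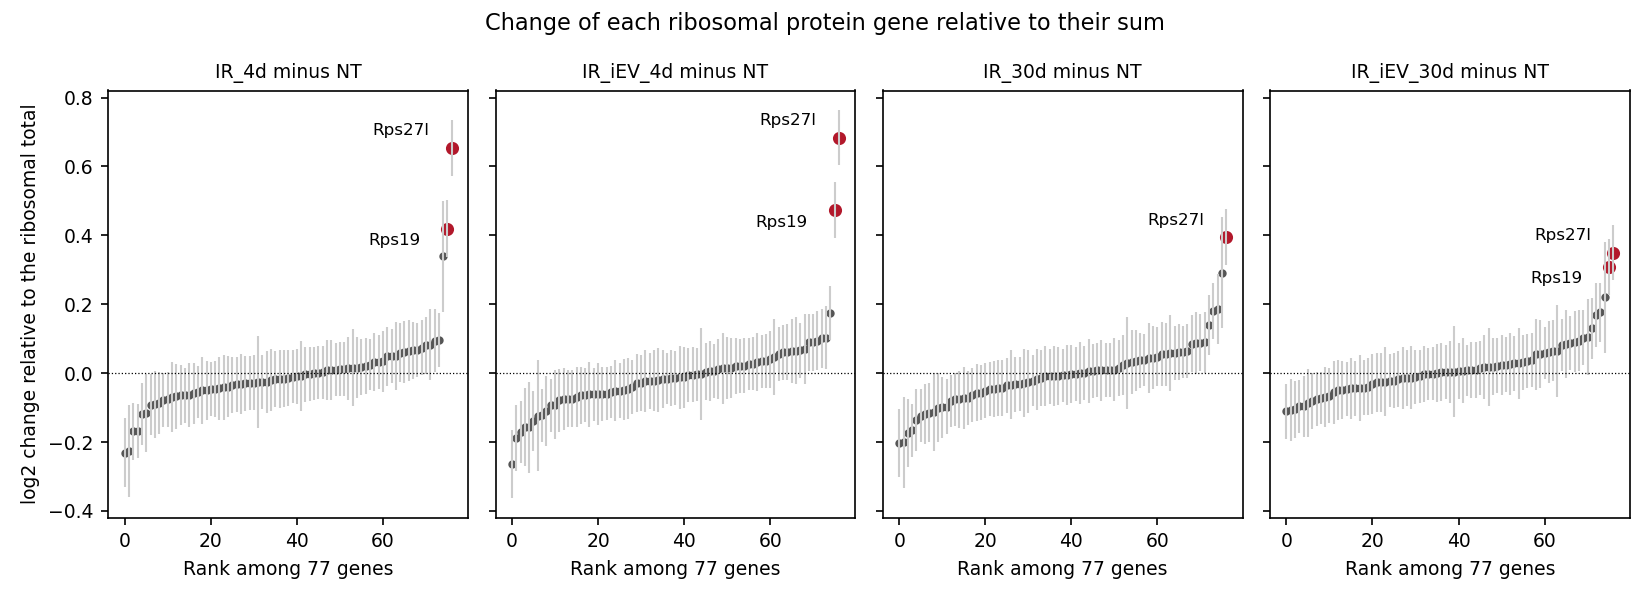
Each panel ranks the 77 genes by their log2 change relative to the summed ribosomal protein counts, with SE bars, for 4 groups against NT. Red points (adjusted p under 0.05) are Rps27l in every panel and Rps19 in all but IR_30d minus NT. They stand at the upper end, with Rps27l at 0.65 in IR_4d minus NT and 0.35 in IR_iEV_30d minus NT.

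Genes that build or regulate the ribosome gave few calls in the 4 main comparisons. More were called between the days, where a larger share of all genes passed as well (6.81 and 8.27%). Rpsa, Fau and Rack1, ribosomal proteins with symbols of another form, did not pass in any of the 4 main comparisons. In IR_iEV_30d minus IR_30d their log2 changes were 0.10, 0.22 and 0.19. None of 40 translation factors and none of 15 RNA polymerase I genes passed in those comparisons. Of 51 ribosome biogenesis genes Rrs1, needed for the large subunit, fell in IR_30d minus NT by 0.52 ± 0.13 (adjusted p = 0.0256), 1 of 51 beside 4.48% of all genes, and its list had a median of -0.12 there. No biogenesis gene passed in the other 3 comparisons, and in IR_iEV_30d minus IR_30d the median was -0.05. Between the days of iEV glands, IR_iEV_30d minus IR_iEV_4d, 12 of the 51 fell and none rose, where 8.27% of all genes passed, and the median was -0.22. Among them Bysl, needed for the small subunit, fell by 1.07 ± 0.18 (adjusted p = 0.00256), Heatr1, a factor of early rRNA processing, by 0.88 ± 0.12 (0.000564) and Nolc1, a nucleolar protein, by 0.90 ± 0.14 (0.00178). The polymerase I factor Rrn3 (-0.51, adjusted p = 0.00291) and the initiation factor Eif1a (-0.58, 0.0255) also fell there. Each was the only gene called in its list of 15 or 40, beside the same 8.27% of all genes. In IR_30d minus IR_4d 2 of the 51 fell, Ppan and Wdr75, where 6.81% of all genes passed, and the median was -0.18.

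Among 32 regulators of mTORC1 and TOP messages, 1 rose and 1 fell in IR_4d minus NT, where 1.40% of all genes passed. Sesn2, a p53-inducible inhibitor of mTORC1, rose by 1.34 ± 0.12 (adjusted p = 1.57e-06) and Eif4ebp1, a repressor of cap-dependent translation, fell by 0.64 ± 0.10 (0.00105). In IR_30d minus NT, where 4.48% of all genes passed, 3 rose and 1 fell: Sesn2 by 0.99 (adjusted p = 8.1e-05), Ddit4, another inhibitor of mTORC1, by 0.67 (0.0246) and Castor1, an arginine sensor, by 1.02 (0.0335), while Rragd, a Rag GTPase, fell by 0.61 (0.000826). In IR_iEV_30d minus IR_30d Rragd rose by 0.54 ± 0.09 (adjusted p = 0.0131) and Castor1 fell by 1.27 ± 0.26 (0.0315), beside 0.798% of all genes. In IR_30d minus IR_4d, where 6.81% of all genes passed, 5 of the 32 rose (Eif4ebp1, Mxi1, Castor2, Castor1 and Ddit4, by 0.33 to 1.04) and none fell. In IR_iEV_30d minus IR_iEV_4d, where 8.27% of all genes passed, Mxi1 (0.44) and Sesn1 (0.47) rose and Sesn2 (-0.61) fell. Sesn2 and Cdkn1a belong to a list of 10 p53 feedback genes, all of which rose in both comparisons with NT and none of which passed in either comparison of iEV with irradiated glands.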

How the data were processed

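The authors deposited whole-number counts per gene symbol, 1 column per library, and the submitters' processing notes name TopHat, HTSeq, DESeq2 and GRCm39, without versions. Strand use and multi-mapping are not given in the sources used here. RNA was extracted with TRIzol and prepared with a directional kit, per the labels' protocols. Testing used edgeR 4.0.16 (R 4.3.3) with TMM scaling and the filterByExpr filter (minimum count 10, minimum total 15). The robust quasi-likelihood model held the 15 libraries (residual degrees of freedom 10), and its F tests were adjusted by Benjamini-Hochberg over 16042 genes (threshold 0.05). The SE is the absolute log2 change over the square root of F. CPM use effective library sizes; the 5 CPM rule uses plain totals. The code was tested on simulated data. Depth, 29082798 to 52201098 counts, and 3 libraries per group limit the precision. DESeq2 1.42.0, limma 3.58.1, other scalings and filters, a replicate block and libraries left out were tried. Transcript lengths are the median of the best APPRIS-ranked GENCODE M21 transcripts. The members, lists and named-gene rule were chosen with earlier results of these data known. The rule names calls in the 4 main comparisons, lowest-p genes where fewer than 5 passed, fixed genes such as Rps27l, Rplp0 and Rpl5, and the extremes of level. Same-group libraries differed beyond counting noise (lowest chi-square per degree of freedom 11.8). Some items are not reported here.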

Additional observations from a re-analysis of the deposited data

Results flagged for a closer look

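Rps27l had a lower level in IR_30d than in IR_4d glands (log2 change -0.33, adjusted p = 0.0271, edgeR quasi-likelihood test), a tested difference between the days of the irradiated groups, and thus between their changes from the same NT libraries. The call was lost without IR_30d replicate 1 or 2 or any IR_4d replicate, with adjusted p-values of 0.119, 0.0914, 0.0564, 0.15 and 0.0551 in that order. It was also lost with the sublingual and adipose marker levels as covariates (0.0622). Without the 6 sublingual-rich libraries, which left only replicate 3 of IR_4d, the log2 change was -0.29. Measured against the sum of the 77 genes the change was -0.26 (adjusted p = 0.0656).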

How the results depend on the processing

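Counts of ribosomal protein genes past the threshold moved most for IR_iEV_30d minus IR_30d: 14 with DESeq2, 9 when the 6 sublingual-rich libraries were left out, and 0 with library totals only, without the low-count filter, in a fit of that comparison alone, or with marker levels as covariates. Replicate numbers did not pair the libraries (correlation above 0.1 in 5 of 30 pairs). The replicate block gave 0 there, 2 for any difference among the groups (4 without it), and changed no other count by over 1.5 times. For IR_30d minus NT the count was 0 with library totals, covariates or without the 6 libraries. For IR_30d minus IR_4d it was 3 with DESeq2, 2 with library totals and 4 in its own fit. Counts of the day 4 comparisons without the 6 libraries are not given. Only replicate 3 of IR_4d and replicate 1 of IR_iEV_4d were left there. IR_iEV_30d minus NT gave 5 with DESeq2 and 1 in its own fit. IR_iEV_30d minus IR_iEV_4d gave 1 with DESeq2 and 1 at a mean of at least 5 CPM, where any difference gave 7. The share of all genes past the threshold in each fit is not set beside these counts. They are therefore not read as more or fewer than that share. Leaving out 1 library gave 0 to 4 for IR_iEV_30d minus IR_30d, 1 to 2 for IR_4d minus NT, 0 to 1 for IR_30d minus NT, 1 to 3 for IR_iEV_30d minus NT, 0 to 1 for IR_30d minus IR_4d and for IR_iEV_30d minus IR_iEV_4d, 2 to 7 for any difference, and 2 to 3 for departures from the ribosomal total.

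Library totals moved the median of all genes by over 0.1, and gave ribosomal medians of -0.14 for IR_30d minus NT, 0.32 for IR_iEV_30d minus IR_30d, -0.19 for IR_30d minus IR_4d and 0.30 for the interaction. Covariates gave 0.12 for IR_4d minus NT, 0.17 for IR_iEV_4d minus NT and -0.16 for IR_30d minus IR_4d. Leaving out the 6 libraries gave 0.18 for IR_iEV_4d minus NT, where only replicate 1 of IR_iEV_4d was left. The median for IR_iEV_30d minus IR_30d lay between 0.19 and 0.32 in the 19 alternatives. The covariates and the 6 libraries, like the shortest transcript length (median of the 77 genes 137 in place of 125 CPM per kb), were chosen after seeing the data. The cause of these shifts was not tested. The any-difference test was not run with DESeq2.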
